A study of Mus musculus with 24 samples.

Results

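T-cell receptor alpha variable segments, named Trav in the mouse, encode the outer part of the receptor alpha chain. The 130 members described here are all rows of a table of 54957 genes whose symbol begins with Trav. RNA was sequenced from T cells sorted out of tumours of B16F10-OVA, mouse melanoma cells made to express the foreign antigen ovalbumin. All mice bore this tumour and received 200 micrograms of an antibody, which was an isotype control, anti-PD-1 (against an inhibitory receptor of activated T cells) or anti-JAML (against a junctional adhesion molecule found on T cells). Tumours were taken 1 day later and sorted for CD4+FOXP3+ regulatory T (Treg) cells or for CD8 T cells, with fewer than 400 cells in each library. This gave 6 groups of 4 libraries, and no label gives the strain, sex, age or genotype of the mice.

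An alpha beta T cell assembles its alpha chain gene by joining a variable segment to a joining segment (Traj), and the join is spliced to the constant segment Trac. All daughters of a T cell inherit the same join, so a clone that has expanded carries a single variable segment in its productive alpha chain. The segments form families by sequence, and in the mouse the middle of the locus was duplicated, so that many families have copies marked d or n in their symbols. The variable segment supplies the CDR1 and CDR2 loops, and the join forms CDR3, the loop that lies over the peptide. Some T cells use fixed segments: invariant NKT cells pair Trav11 with Traj18, MAIT cells pair Trav1 with Traj33, and the Trav14 family encodes V alpha 2, the variable region of the OVA-specific OT-I receptor.

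In the GENCODE M21 annotation of the mm10 build, the 130 rows lie on the plus strand of chromosome 14, between positions 52427928 and 53977678, a stretch of 1550 kb. They fall into 23 families, with 110 rows annotated as functional variable genes and 20 as pseudogenes. The coding end is shown for the segments with a coding frame that held over 25% of Trav counts in a CD8 library, and for Trav14-3 as a close relative of Trav14d-3-dv8, because the reads of a clone could be told from its copies only where these sequences differ. Each line gives the last 81 coding bases in the reference, 5′ to 3′, and capitals mark the last in-frame cysteine codon, after which CDR3 begins.

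Trav8n-2 (chr14:53346344-53346424): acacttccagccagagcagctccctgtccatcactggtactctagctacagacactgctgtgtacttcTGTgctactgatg
Trav14d-3-dv8 (chr14:53078965-53079045): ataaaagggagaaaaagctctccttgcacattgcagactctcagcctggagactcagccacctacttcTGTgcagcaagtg
Trav14-3 (chr14:53763614-53763694): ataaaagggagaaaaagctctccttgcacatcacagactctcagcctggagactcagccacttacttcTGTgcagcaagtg
Trav3-1 (chr14:52581133-52581213): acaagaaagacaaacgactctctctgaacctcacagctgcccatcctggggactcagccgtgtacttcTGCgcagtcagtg
Trav3-3 (chr14:53666426-53666506): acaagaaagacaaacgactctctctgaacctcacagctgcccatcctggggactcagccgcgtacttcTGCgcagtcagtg
Trav13-1 (chr14:53545445-53545525): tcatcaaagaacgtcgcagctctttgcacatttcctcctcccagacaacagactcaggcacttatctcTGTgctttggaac
Trav6n-6 (chr14:53133057-53133137): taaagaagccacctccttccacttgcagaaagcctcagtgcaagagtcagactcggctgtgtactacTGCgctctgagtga

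Between their annotated transcripts, Trav14d-3-dv8 and Trav14-3 differed at 12 of 384 bases compared and were 96.9% identical. The Trav11 family is shown because it holds both cases, a pair of members that cannot be told apart and Trav11n, which can. Trav11 and Trav11d had 0 differences over 342 bases, and Trav11n, annotated as a pseudogene, differed from Trav11 at 8 of 343 bases. Trav11n has no annotated coding frame, so its last 81 transcript bases are given without capitals.

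Trav11 (chr14:53519779-53519859): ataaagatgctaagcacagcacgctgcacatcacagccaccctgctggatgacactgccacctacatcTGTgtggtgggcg
Trav11d (chr14:52824832-52824912): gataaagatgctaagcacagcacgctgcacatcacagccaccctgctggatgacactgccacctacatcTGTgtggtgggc
Trav11n (chr14:53135598-53135678): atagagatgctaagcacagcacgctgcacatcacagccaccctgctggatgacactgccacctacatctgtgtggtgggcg

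Rows with sequence of their own mostly received counts, and rows without it did not. Of the 130 rows, 92 had a count in at least 1 of the 24 libraries and 38 were at 0 in all of them. For 41 rows, every word of 50 bases also occurred in another Trav row; 26 of these were at 0 and the other 15 together held 0.053% of all Trav counts. Of the 89 rows with at least some words of their own, 77 had counts, among them 70 of the 73 functional genes and 7 of the 16 pseudogenes. By copy, 52 of 56 rows without a suffix had counts, against 22 of 40 d copies and 18 of 34 n copies. Trav11 and Trav11d, which have no words of their own, had 8 and 13 counts in all. For such rows a level near 0 does not measure use of the segment.

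**Figure D1:**
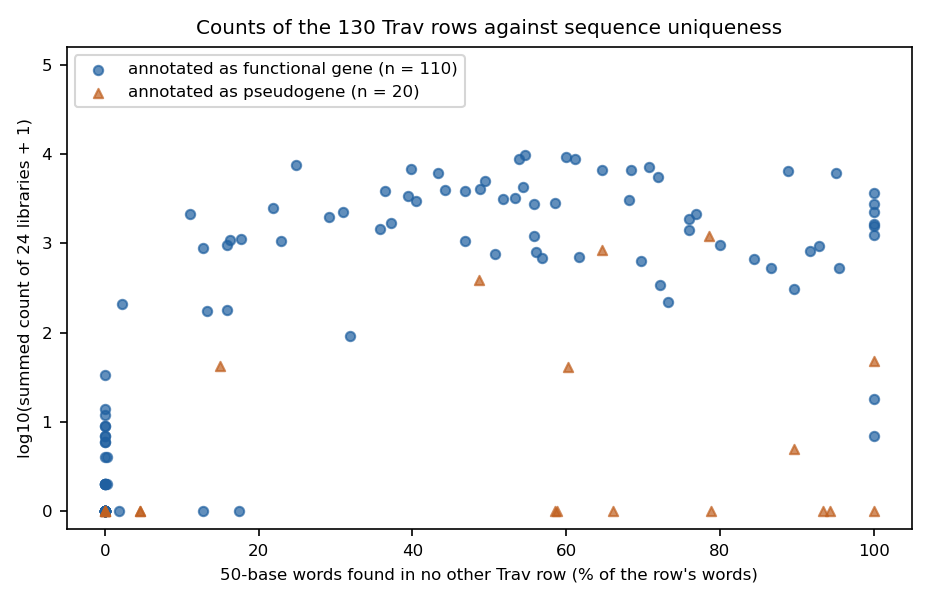
Each point is 1 of the 130 Trav rows; the x axis gives the percentage of its 50-base words found in no other Trav row, and the y axis the log10 of its summed count in 24 libraries plus 1. The 41 rows at 0% on the x axis lie at the foot of the plot, and most functional genes with words of their own had counts.

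Library totals lay between 11170918 and 22556460 counts, with a median of 16238787. Cd8a stood between 1100 and 1900 CPM (counts scaled to library size) in CD8 libraries and at most 0.0761 CPM in Treg libraries. Cd8b1 stood between 679 and 1250 CPM in CD8 libraries, but also between 12.3 and 48.3 CPM in Treg libraries, and its source there was not tested. Cd4 stood between 195 and 443 CPM in Treg libraries and at most 0.116 CPM in CD8 libraries. Foxp3, the Treg transcription factor, stood between 40.6 and 169 CPM in Treg libraries and at 0 in CD8 libraries. Treg library titles carry the numbers 133 to 144 and CD8 titles 157 to 168, and the labels do not say what the numbers stand for, so a handling step that followed them cannot be told apart from the cell population. Macrophage markers summed to between 4.86 and 1060 CPM, with the highest values in Treg anti-PD-1 libraries 4 (1060 CPM) and 1 (752 CPM) and in CD8 anti-JAML library 2 (439 CPM), and their part in the results was not tested. Whether each library stands for a mouse of its own is not stated, and p-values therefore refer to the spread among these libraries, which may be technical.

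CD8 isotype libraries 1 and 2 resembled each other, as did 3 and 4. The overlap of 2 libraries is the sum, over segments, of the smaller of their shares of Trav counts, and is 100% for identical use. It was 58.2% for CD8 isotype 1 with 2 and 57.8% for 3 with 4, while the other 64 CD8 pairs lay between 11.2% and 41.1% (median 22.5%). For beta chain variable segments (Trbv), isotype 3 with 4 overlapped by 82.0%, above all other CD8 pairs. Isotype 1 with 2 overlapped by 64.5%, within the range of the other pairs (28.3% to 66.6%, median 45.0%). The labels do not say whether these are separate samples, and the main results are also given with 1 and 2 counted as 1 sample and 3 and 4 as another.

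CD8 libraries held most of their Trav counts in few segments, which differed from library to library, whereas Treg libraries spread their counts over many. In the 12 CD8 libraries the leading segment held between 12.7% and 62.2% of Trav counts, with a median of 37.9%. In the 12 Treg libraries it held between 6.9% and 12.1%, with a median of 9.9%, so the populations did not overlap in this measure. A segment held over 25% of counts in 8 of 12 CD8 libraries and in 0 of 12 Treg libraries. The 12 CD8 libraries had 11 different leading segments, and the 12 Treg libraries had 8. Intervals below are 95% Wilson intervals, which cover counting error only, since amplified reads are not independent molecules.

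Trav8n-2 led both CD8 isotype libraries 1 and 2, with 52.1% (interval 50.4% to 53.7%) and 33.0% (31.6% to 34.3%) of Trav counts. In isotype libraries 3 and 4 it held 1.1% and 1.7%, and in the other 8 CD8 libraries at most 1.4%. Among Treg libraries its share lay between 0.0092% and 5.7%. Trav8n-2 was thus high in CD8 isotype libraries 1 and 2 and low in all others. Its smaller share, 33.0%, is itself part of the 58.2% by which these 2 libraries overlapped.

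Trav14d-3-dv8, a V alpha 2 segment of the d copy whose symbol also marks use in delta chains, led CD8 anti-PD-1 library 4 with 49.9% (48.6% to 51.3%). It ranked second in CD8 isotype library 1 with 22.9% and held 12.4% in isotype library 2. In the other 9 CD8 libraries it held between 0.0% and 2.1%, and in Treg libraries between 0.73% and 7.8%.

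The Trav3 family led 2 CD8 libraries through different members. Trav3-1 held 62.2% (61.0% to 63.3%) of CD8 anti-PD-1 library 3, the highest share of any segment in any library, and at most 2.9% in the other CD8 libraries. Trav3-3 held 57.1% (55.9% to 58.3%) of CD8 anti-JAML library 3, 9.8% of anti-JAML library 4 and between 0.68% and 4.6% of the other CD8 libraries. In Treg libraries Trav3-1 lay between 0.0% and 3.0% and Trav3-3 between 0.74% and 6.2%. Neither member was high in the library led by the other: Trav3-3 held 1.2% of anti-PD-1 library 3, and Trav3-1 held 0.015% of anti-JAML library 3.

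Trav13-1 held 54.0% (53.0% to 55.0%) of CD8 anti-JAML library 1 and 16.2% of CD8 anti-PD-1 library 1, with 9.7% or less in the other CD8 libraries. Trav6n-6 held 25.7% (24.6% to 26.7%) of CD8 anti-JAML library 4, and it also led a Treg library, isotype 2, with 11.6%. In Treg libraries Trav13-1 held between 0.76% and 5.3%, and Trav6n-6 between 0.12% and 11.6%.

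Trav11n held 42.7% (40.7% to 44.7%) of CD8 anti-PD-1 library 2, with 1010 counts. It had 178 counts in anti-PD-1 library 3 (2.4% of Trav counts), 16 in anti-PD-1 library 4, 3 in CD8 isotype library 3 and 14 in Treg anti-PD-1 library 4, and 0 in the other 19 libraries. The annotation calls this row a pseudogene, and it has 78.6% of its words to itself. Traj18, the joining segment of the invariant NKT receptor, had 38 counts in anti-PD-1 library 2, within the 11 to 81 counts of the other CD8 libraries. Zbtb16, the transcription factor that marks NKT and MAIT cells, was at 0 in that library and in all others except CD8 isotype 4 (0.695 CPM).

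**Figure D2:**
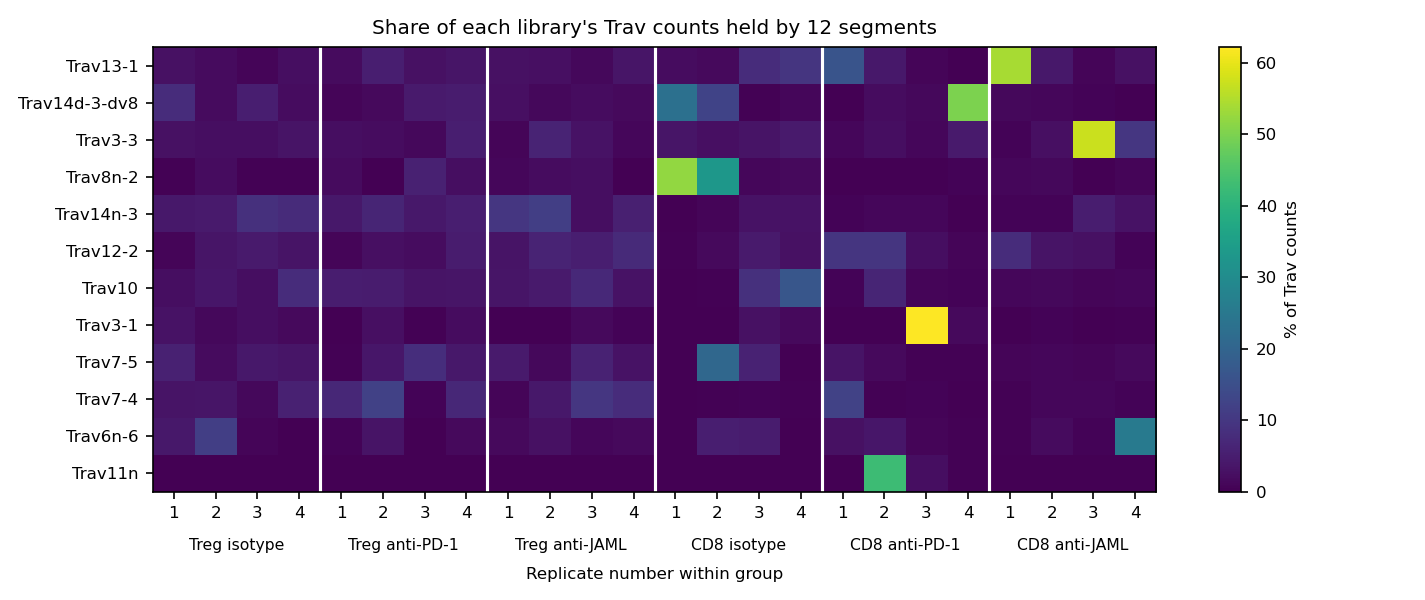
Colour gives the percentage of a library's Trav counts held by each of 12 segments (rows) in 24 libraries (columns, by group and replicate number): the 10 with the highest mean share and every segment over 25% in any library. Shares over 25%, up to 62.2%, stand in single CD8 libraries except for Trav8n-2 in isotype 1 and 2, and no Treg library exceeds 12.1%. Lower shares recur, with Trav14d-3-dv8 also at 22.9% in CD8 isotype 1 and Trav13-1 also at 16.2% in CD8 anti-PD-1 1.

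The 4 CD8 libraries without a segment above 25% were also led by different rows. Trav10d led isotype library 3 with 12.7% and Trav10, its near-identical copy (3 differences in 406 bases), led isotype library 4 with 16.6%. Trav13d-4 led anti-PD-1 library 1 with 20.1%, and Trav13-2 led anti-JAML library 2 with 21.1%. In isotype library 3 Trav10 came second with 8.6%, so the Trav10 copies together stood out in both.

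The effective number of segments, the exponential of the Shannon entropy of the shares, says how many equally used segments would give the same diversity. In order of replicate number it was 32.1, 37.6, 36.2 and 36.3 in Treg isotype libraries. Treg anti-PD-1 libraries stood at 34.3, 32.3, 26.7 and 38.1, and Treg anti-JAML libraries at 34.4, 32.3, 35.2 and 32.1. Treg values thus stayed in a narrow band, with anti-PD-1 library 3 the lowest.

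In CD8 isotype libraries the effective number was 5.8, 9.7, 27.4 and 28.2. CD8 anti-PD-1 libraries stood at 15.3, 11.8, 6.5 and 8.7, and CD8 anti-JAML libraries at 7.9, 28.5, 8.2 and 19.5. CD8 isotype libraries 3 and 4 and anti-JAML library 2 were the most diverse and lay above the lowest Treg library, while all other CD8 libraries lay below every Treg library. Anti-JAML library 2 also had the highest macrophage marker level of the CD8 libraries, and the part of this in its diversity was not tested.

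The mean effective number was 14.8 ± 8.85 (SD, n = 12) in CD8 and 34.0 ± 3.13 (n = 12) in Treg libraries, a difference of -19.2. This exceeded the spread between libraries (two-sided exact permutation test within antibodies, p = 5.83e-06, from 343000 arrangements). With the alike isotype libraries counted as 1 sample each, the difference was -19.8 (exact permutation p = 1.36e-05). When every library was thinned to the 2366 Trav counts of the shallowest, it was -18.8 (exact permutation p = 5.83e-06). Each of these p-values is the smallest its test allows, so they do not measure how far a setting changed the result. The difference was -17.8 in isotype, -22.3 in anti-PD-1 and -17.5 in anti-JAML groups, each with an exact permutation p of 0.0286, the smallest that 4 libraries against 4 allow.

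The number of detected segments differed less than their evenness. Between 33 and 64 segments had counts in a CD8 library and between 52 and 64 in a Treg library. Segments holding over 1% of Trav counts numbered 16.5 ± 6.67 (SD, n = 12) in CD8 and 28.2 ± 1.82 in Treg libraries. Evenness, the entropy as a share of its highest possible value, was 0.652 ± 0.138 in CD8 and 0.861 ± 0.0183 in Treg libraries. A core of 8 segments had counts in all 24 libraries. In all 12 Treg libraries 27 had counts, and in all 12 CD8 libraries 10. Found in Treg libraries only were 11, and in CD8 libraries only 7. Detection depends on depth, and Trav counts lay between 2366 and 8988 in CD8 and between 5103 and 19606 in Treg libraries. The values of this paragraph were not taken at equal depth.

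**Figure D3:**
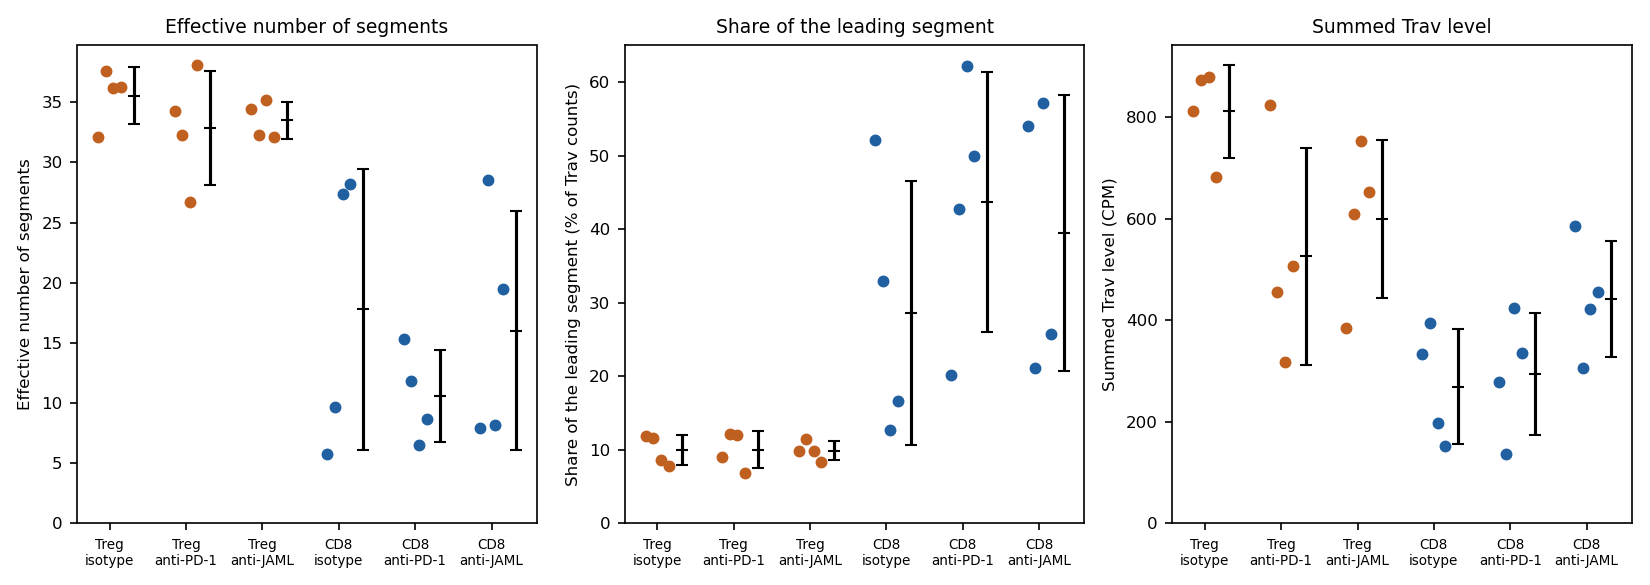
Points are the 4 libraries of each group, and bars beside them the mean ± SD; the panels give the effective number of segments, the share of the leading segment in percent of Trav counts, and the summed Trav level in CPM. CD8 libraries reach from 5.8 to 28.5 effective segments and Treg libraries from 26.7 to 38.1.

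CD8 libraries also held less Trav RNA. The summed level in order of replicate number was 812, 873, 880 and 683 CPM in Treg isotype, 824, 456, 318 and 508 CPM in Treg anti-PD-1, and 385, 609, 753 and 653 CPM in Treg anti-JAML libraries. It was 333, 395, 197 and 153 CPM in CD8 isotype, 279, 137, 424 and 336 CPM in CD8 anti-PD-1, and 585, 306, 423 and 455 CPM in CD8 anti-JAML libraries. In the isotype groups every CD8 library was below every Treg library, while after either treatment antibody the populations overlapped.

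The log2 difference of CD8 against Treg in summed Trav CPM was -0.997 (two-sided exact permutation test within antibodies, p = 0.000315; n = 12 and 12). With the alike isotype libraries counted as 1 sample each it was -0.938 (exact permutation p = 0.000735). By antibody it was -1.69 in isotype (exact permutation p = 0.0286), -0.87 in anti-PD-1 (p = 0.0857) and -0.44 in anti-JAML groups (p = 0.2). Trac, the constant segment that all alpha chains share, was 1250 ± 273 CPM in CD8 and 1820 ± 445 CPM in Treg libraries (log2 fold change -0.53 ± 0.13, edgeR adjusted p = 0.00432). Relative to Trac counts the log2 Trav difference was -0.46 and no longer passed the test (exact permutation p = 0.0561). In bulk RNA, fewer cells with a transcript and less of it per cell cannot be told apart.

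Row by row, edgeR tested 68 Trav rows in CD8 against Treg, and 24 rows with counts were too low to test. Of the 68, 30 were lower in CD8 and 0 higher at an adjusted p under 0.05. Among all 14591 genes tested, 26.1% were called, 11.9% lower and 14.2% higher in CD8. The median log2 fold change of the tested Trav rows was -1.94, with 59 negative and 8 positive, against -0.01 over all genes. Among the 56 rows with counts in all 6 groups the median was -1.69, and 24 of them were lower. Rows could pass the filter on low counts through libraries of either population. Among CD8 libraries alone 55 Trav rows passed it, and among Treg libraries alone 64. The filter could thus lean the medians, signs and number of lower rows toward Treg, which was not tested. All 30 fold changes lay below that of the summed level, and between -5.62 and -1.46. With the alike isotype libraries counted as 1 sample each, 19 rows were lower and 0 higher, and 18 of these were among the 30. No share over all genes was taken for that fit.

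Overlap of single segments is described here without a background, since the share of all genes without overlap was not taken. Trav8-1 was the only one of the 30 whose highest CD8 library (5.2 CPM) lay below its lowest Treg library (5.29 CPM). In all the others at least 1 CD8 library reached into the Treg range. The median over libraries was higher in Treg for all 30.

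In the Trav14 family, which encodes V alpha 2, 4 of 5 tested rows were lower. Trav14-3 stood at 29.9 ± 21.1 CPM in Treg (lowest 2.97, median 22.8, highest 74.2) and at 1.51 ± 1.47 CPM in CD8 libraries (lowest 0, median 1.11, highest 4.35; n = 12 each). Its log2 fold change was -4.28 ± 0.68 (SE; edgeR adjusted p = 5.02e-05), the smallest p of any Trav row. The ranges overlapped through 1 Treg library, which lay below the 2 highest CD8 libraries. Trav14n-3 stood at 38.7 ± 19.1 CPM in Treg (12.4 to 75.9) and 5.2 ± 6.22 CPM in CD8 libraries (0 to 21.3), with a log2 fold change of -3.16 ± 0.53 (adjusted p = 8.94e-05). Trav14-1 (-3.56 ± 0.62) and Trav14-2 (-2.79 ± 0.74) were lower as well. The fifth tested member was Trav14d-3-dv8, which led anti-PD-1 library 4 and was not called. The other 4 rows of the family, Trav14d-1, Trav14n-1, Trav14d-2 and Trav14n-2, had no word of their own and no counts.

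All tested members of the Trav4 and Trav5 families were lower in CD8. Trav4-4-dv10 stood at 17.6 ± 12.8 CPM in Treg (4.80 to 50.1) and 2.13 ± 1.74 CPM in CD8 libraries (0.0632 to 5.22), with a log2 fold change of -2.99 ± 0.54 (edgeR adjusted p = 0.000223). Trav4-2 had counts in 11 Treg and 3 CD8 libraries, and Trav4-3 in 11 and 7. Trav5-1 stood at 12.3 ± 14.3 CPM in Treg and 0.853 ± 1.23 CPM in CD8 libraries (log2 fold change -4.16 ± 1.04, adjusted p = 0.00419), and Trav5-4 was lower by the smallest step of the 30, -1.46 ± 0.50.

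The larger families were mixed. In Trav7, 4 of 8 tested rows were lower, led by Trav7-4 at 34.3 ± 22.4 CPM in Treg and 4.27 ± 9.45 CPM in CD8 libraries (log2 fold change -3.59 ± 0.76, edgeR adjusted p = 0.000979). CD8 anti-PD-1 library 1 was its exception, with 34.0 CPM. In Trav9, 4 of 6 were lower, led by Trav9-2 (-2.91 ± 0.62, adjusted p = 0.00107) and including Trav9-1 (-2.69 ± 0.84). In Trav6 it was 5 of 11, among them Trav6-7-dv9 (-2.75 ± 0.74) and Trav6-5 (-2.87 ± 0.83), and in Trav13 it was 2 of 8. Of the tested rows of Trav3 (3), Trav15 (2) and Trav16 (3), 0 were called.

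The segments over 25% in a CD8 library were not called. Trav13-1 had a log2 fold change of 0.59 ± 0.58, Trav3-1 of -0.59 ± 0.96 and Trav8n-2 of -0.62 ± 0.79. Trav11n had no counts in 3 of the 6 groups, so its fold is not given.

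**Figure D4:**
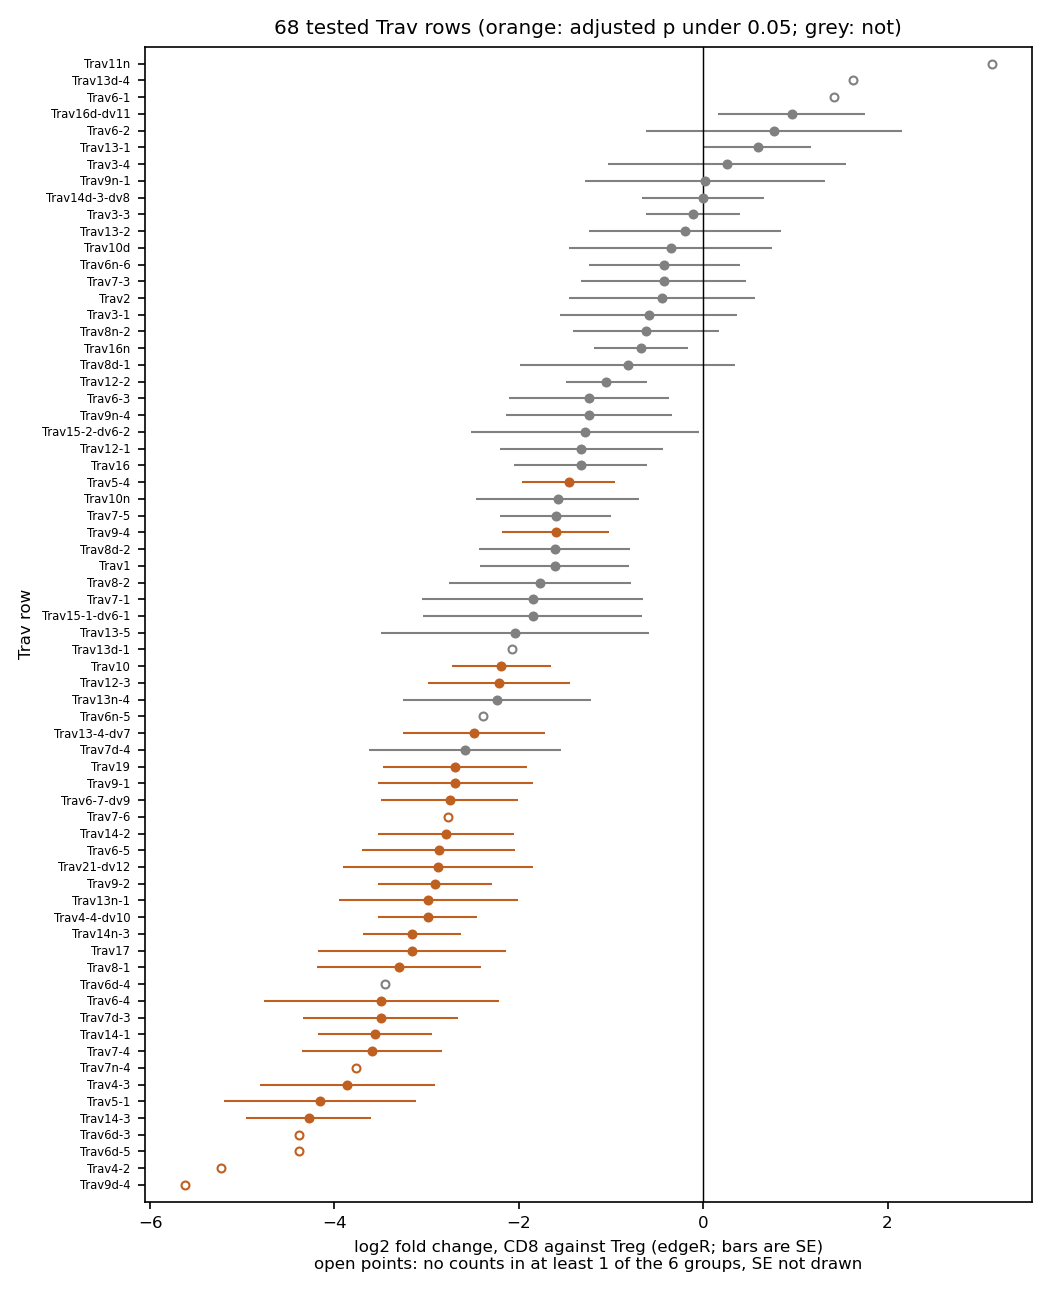
Points give the log2 fold change of CD8 against Treg for the 68 tested Trav rows, with SE as bars, and orange marks the 30 with an edgeR adjusted p under 0.05; open points had no counts in at least 1 of the 6 groups and carry no SE. All orange points lie at or below -1.46.

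Rows were also summed by family, which removes the division of counted reads among copies. Reads left out for matching several copies would still be missing from these sums, and the treatment of such reads is not known. Of 19 tested families, 11 were lower and 1 was higher in CD8. In the fit by row, 26.1% of all genes were called, 11.9% lower and 14.2% higher. Trav14 took 20.7% ± 5.76 (SD, n = 12; 12.2% to 29.0%) of Trav counts in Treg and 11.5% ± 13.8 (2.44% to 50.9%) in CD8 libraries. Trav4 had the smallest p, with a log2 fold change of -3.13 ± 0.41 (edgeR adjusted p = 4.78e-06), from 3.94% ± 1.91 of Trav counts in Treg to 0.964% ± 0.627 in CD8 libraries. Trav9 (-1.77 ± 0.29), Trav5 (-2.34 ± 0.49), Trav7 (-1.85 ± 0.41) and Trav14 (-1.84 ± 0.42) were also lower. Trav11 was the 1 family called higher (4.28 ± 1.30, adjusted p = 0.0188). Without anti-PD-1 library 2 its log2 fold change was 3.54 ± 1.32 and no longer passed the test (edgeR adjusted p = 0.0578), and 11 of 20 families were lower and 0 higher. Trav3 (0.44 ± 0.61) and Trav13 (0.13 ± 0.49) did not pass the test.

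Split by antibody, fewer rows passed. In isotype groups 9 of 68 were lower and 0 higher, where 4.82% of all genes were lower and 7.09% higher. With anti-PD-1 5 were lower and 0 higher, where 5.08% of all genes were called, 2.63% lower and 2.45% higher. With anti-JAML 0 were called, where it was 4.56% of all genes, 2.32% lower and 2.24% higher. Beside that 0, 13 of 68 rows had an unadjusted edgeR p under 0.05, as did 2683 of all 14591 genes, a like share. The smallest adjusted p was 0.0583, for Trav14-3. Trav14-3 stood at log2 fold changes of -4.58 ± 1.20, -4.41 ± 1.19 and -3.84 ± 1.16 in the 3 settings. Tests of whether an antibody's effect differed between populations called 0 of 68 Trav rows for either antibody with edgeR, and 0% of all genes. At an unadjusted edgeR p under 0.05 there were 10 of 68 rows for anti-PD-1, beside 912 of all 14591 genes. For anti-JAML there were 12 of 68 rows, beside 1224 of all genes.

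No difference in Trav diversity between antibody groups exceeded the spread between libraries. The mean effective number was 17.8 ± 11.7 (SD, n = 4) in CD8 isotype, 10.6 ± 3.83 in CD8 anti-PD-1 and 16.0 ± 9.92 in CD8 anti-JAML libraries. Anti-JAML differed from isotype by -1.77 (exact permutation p = 0.829), anti-PD-1 from isotype by -7.21 (p = 0.343) and anti-JAML from anti-PD-1 by 5.44 (p = 0.371). In Treg libraries the same differences were -2.07 (exact permutation p = 0.2), -2.72 (p = 0.4) and 0.646 (p = 0.8). Adjusted over these 6 comparisons, the values lay between 0.6 and 0.829, and the comparisons of a population share libraries.

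The anti-JAML difference in CD8 rested on single libraries. It turned positive without CD8 isotype library 3 (1.44) or 4 (1.71), and without anti-JAML library 1 (0.944) or 3 (0.832). Each CD8 group held both diverse and narrow libraries, except that all 4 anti-PD-1 libraries were at or below 15.3.

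No Trav row was called by edgeR between antibody groups. In CD8 libraries 55 rows were tested and 0 called for anti-JAML against isotype, anti-PD-1 against isotype and anti-JAML against anti-PD-1, where 0%, 0% and 0.00791% of all genes were called. At an unadjusted edgeR p under 0.05 there were 9, 8 and 8 of the 55 rows, and 1483, 710 and 1261 of all 12648 genes. DESeq2 called 2, 1 and 2 rows. Trav12-1 and Trav3-3 were higher after anti-JAML than isotype, and Trav8n-2 was lower after anti-PD-1 than isotype. Trav7-6 and Trav3-3 were higher after anti-JAML than anti-PD-1. The percentages above are those of edgeR. No share over all genes was taken for DESeq2, so its counts have no background to be read against.

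The levels of those segments in single CD8 libraries follow. Trav3-3 stood at 3.97, 7.88, 241.5 and 44.5 CPM after anti-JAML, against 11.6, 9.98, 6.65 and 7.08 CPM after isotype and 2.77, 3.12, 4.99 and 15.6 CPM after anti-PD-1. Trav12-1 stood at 51.5, 10.1, 2.76 and 5.22 CPM after anti-JAML and at 2.08, 0, 0 and 0.316 CPM after isotype, so each anti-JAML library exceeded each isotype library. For Trav3-3 all 3 groups overlapped, and anti-JAML library 3 was far above the rest. Trav8n-2 stood at 173.5, 130.1, 2.19 and 2.59 CPM after isotype and between 0 and 1.95 CPM after anti-PD-1. These groups did not overlap, but isotype libraries 1 and 2 were far above 3 and 4. Trav7-6, with the smallest DESeq2 adjusted p (0.00223), stood at 1.43, 0.901, 0.628 and 11.7 CPM after anti-JAML and at 0 in all 4 anti-PD-1 libraries, so the groups did not overlap and the fold is not given. With edgeR the adjusted p was 0.341 for Trav12-1, 0.343 for Trav3-3 against isotype and 0.25 against anti-PD-1, 0.831 for Trav8n-2 and 0.2 for Trav7-6.

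Most tested Trav rows had a positive fold change after anti-JAML in CD8 libraries. Against isotype 39 of 55 were positive (median log2 fold change 1.48, against 0.09 over all genes), and against anti-PD-1 47 of 55 (median 1.09, against 0.02). Between anti-PD-1 and isotype 28 of 55 were positive (median 0.05, against 0.04). The summed Trav CPM did not pass the test for anti-JAML against isotype, with a log2 difference of 0.78 (exact permutation p = 0.114), nor against anti-PD-1, with 0.67 (p = 0.171).

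In Treg libraries 64 rows were tested and 0 were called by edgeR or DESeq2 in any antibody comparison, where edgeR called 0% of all genes for anti-JAML against isotype, 0.0231% (0.0154% higher, 0.00770% lower) for anti-PD-1 against isotype and 0% for anti-JAML against anti-PD-1. At an unadjusted edgeR p under 0.05 there were 4, 6 and 2 of the 64 rows, and 699, 1835 and 742 of all 12981 genes. The medians were -0.59, -0.81 and 0.30, against 0.02, 0.04 and -0.03 over all genes. Summed Trav CPM after anti-JAML differed from isotype by -0.47 on the log2 scale (exact permutation p = 0.0571), and after anti-PD-1 by -0.70 (p = 0.0857).

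Treg libraries resembled each other in Trav use, and CD8 libraries did not. Overlap lay between 41.9% and 68.7% over 66 Treg pairs (median 56.8%). It lay between 17.7% and 51.3% over 144 pairs of a CD8 with a Treg library (median 31.7%), above the median of 22.5% among CD8 pairs without the alike ones. The median was 56.9% for Treg pairs of the same antibody (n = 18) and 56.5% for those of different antibodies (n = 48). For a CD8 and a Treg library of the same antibody and number the median was 30.7% (n = 12), close to that of all such pairs. Pairs share libraries, so these values are a description without a test.

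Summing by family raised the median overlap in both populations, and the ranges then met. Its median was 75.9% among Treg pairs and 37.6% among CD8 pairs without the alike ones. CD8 pairs without the alike ones lay between 20.6% and 80.9%, and Treg pairs between 67.3% and 87.6%. The highest of these CD8 pairs, anti-PD-1 library 3 with anti-JAML library 3, was led by Trav3-1 and Trav3-3 and overlapped by 16.8% by segment and 80.9% by family. Anti-PD-1 library 1 with anti-JAML library 1, and with anti-JAML library 2 (67.9% by family), also lay within the Treg range. Anti-PD-1 library 3 and anti-JAML library 1, led by members of different families, overlapped by 16.9% by segment and 23.8% by family.

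**Figure D5:**
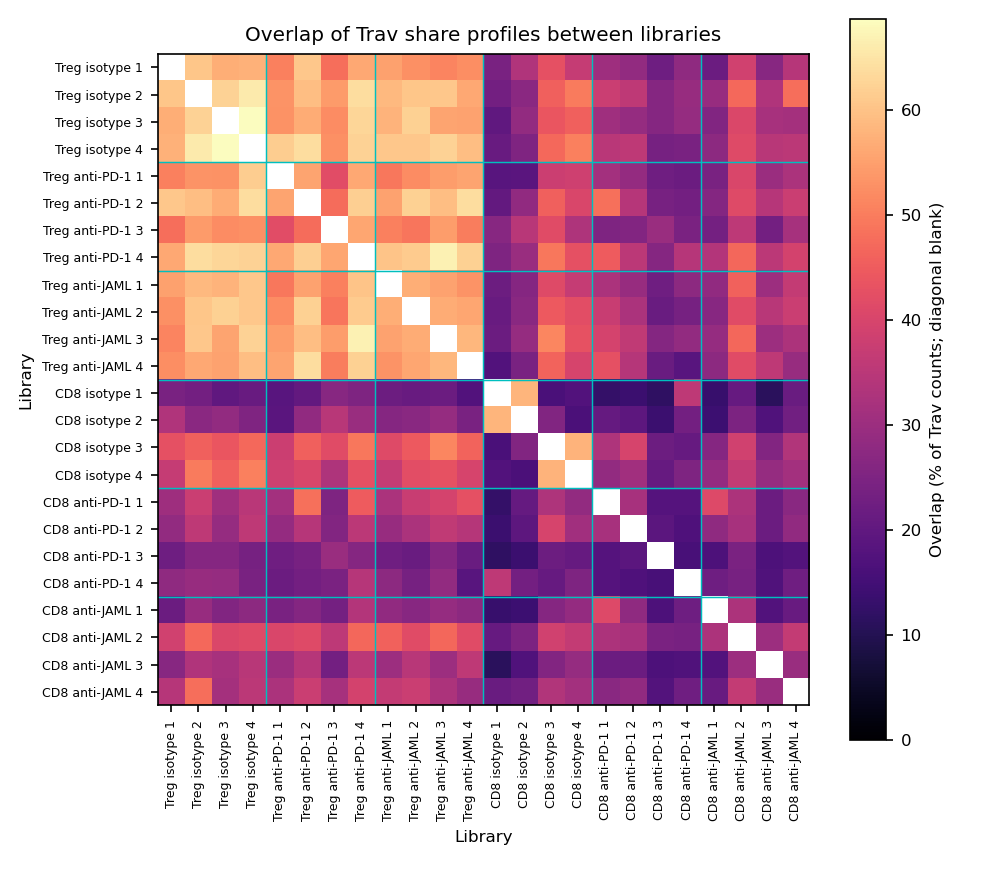
Colour gives the overlap of Trav share profiles for each pair of the 24 libraries, in percent of Trav counts, with the diagonal left blank. The 12 Treg libraries form a bright block between 41.9% and 68.7%, and among CD8 libraries only isotype 1 with 2 and 3 with 4 pass 41.1%.

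Position in the locus varied more among CD8 libraries. The count-weighted mean position lay between 898 and 1076 kb from the locus start in Treg libraries. In CD8 libraries it lay between 452 and 1091 kb, and the lowest value belonged to anti-PD-1 library 3, led by Trav3-1 near the start of the locus. Copies without a suffix took 72.4% ± 5.63 (SD, n = 12) of Trav counts in Treg libraries (59.0% to 79.7%) and 58.7% ± 20.6 in CD8 libraries (16.8% to 88.7%), the lowest being isotype library 1 with its Trav8n-2.

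Trav1, the MAIT cell segment and a family of 1 row whose sequence is wholly its own, had counts in 11 of 12 libraries of each population. It took 1.36% ± 1.06 of Trav counts in Treg and 0.995% ± 1.87 in CD8 libraries, up to 6.81% in 1 CD8 library. Its log2 fold change did not pass the test.

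Other receptor segments were compared in the same fit. Of 60 Traj rows 38 were tested, with 5 lower in CD8 and 0 higher (median log2 fold change -1.51). The share lower was near the 11.9% of all genes. Among CD8 libraries alone 18 Traj rows passed the filter on low counts, and among Treg libraries alone 34, so this median has the same limit as that of Trav. Of 35 Trbv rows 23 were tested, 4 were lower (Trbv26, Trbv3, Trbv13-2 and Trbv1) and 1, Trbv5, was higher (median -0.37), beside 26.1% of all genes called in either direction. The effective number of Trbv segments was 9.94 ± 2.0 (SD, n = 12) in CD8 and 13.3 ± 1.17 in Treg libraries, a difference of -3.31 (exact permutation p = 0.00014). The leading Trbv segment held 30.8% ± 9.26 in CD8 and 18.0% ± 3.53 in Treg libraries. Of the 7 constant and CD3 chains, Trac and Cd247 were lower and Trbc1 was higher in CD8.

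Genes of the other receptor were also compared, because some Trav segments can join to delta chains. Trdc, the delta constant segment, stood at 1.36 ± 2.19 CPM in CD8 and 1.96 ± 1.62 CPM in Treg libraries, at most 7.66 CPM. Of 11 gamma and delta chain genes 8 were tested. Trgc1, Trgc2 and Trgc4, gamma constant segments, were higher in CD8 and Trdv4 was lower. Among all genes 14.2% were higher and 11.9% lower. Trdv4 was at 0 in all 12 CD8 libraries and had counts in 5 of 12 Treg libraries, at most 2.67 CPM. Trgc2 stood at 72.8 ± 41.4 CPM in CD8 and 0.150 ± 0.520 CPM in Treg libraries. The recombination genes Rag1, Rag2 and Dntt and the pre-T alpha gene Ptcra were too low to test, with at most 6.01 CPM in any library.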

How the data were processed

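Gene counts (raw whole numbers, 1 column a library) were used as deposited. STAR 2.7.3a, fastp 0.20.1, deepTools 3.3.1 and SAMtools are named with the mm10 build, per the submitters' processing notes. The counting tool, strand setting, annotation and treatment of reads with several matches were not given in the sources used here. The deposited TPM table was not used. Smart-seq2 libraries cover whole polyadenylated transcripts, per the labels' protocols. All 130 Trav identifiers matched GENCODE M21, from which positions and sequences came.

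Counts were tested with edgeR 4.0.16 (quasi-likelihood, TMM, filterByExpr with a minimum count of 10 and total of 15) on all 24 libraries, or the 12 of a population, and with DESeq2 1.42.0 as an alternative. Adjusted p-values are Benjamini-Hochberg over all genes tested, with a threshold of 0.05. CPM used TMM library sizes. Shares are of all Trav counts in a library, between 2366 and 19606. Single values were compared by exact permutation, which was checked on simulated data, as was edgeR.

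Segments named were the 10 with the highest mean share, those over 25% in any library, up to 20 called with the smallest p, and families Trav1, Trav11 and Trav14; others named were chosen after their values were seen. The members, lists and tests were chosen with earlier results of these data known. Counting the alike isotype libraries as 1 sample, and leaving CD8 anti-PD-1 library 2 out of the family fit, were added after seeing the data.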

Additional observations from a re-analysis of the deposited data

Results flagged for a closer look

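For 12 segments (the 10 with the highest mean share and all over 25% in any library), the effective number, the leading share and the summed level, 90 sets of 4 libraries were examined for a library standing far from the rest of its group by Dixon's criterion. For unselected values with a normal spread, chance marks about 1 in 20 groups. Here the segments over 25% were chosen because a library was high, and a group with counts in 1 library only is always marked. The number of marks can therefore not be weighed against chance. Of the 90 sets 11 were marked, each for the highest share of a segment in its group. In CD8 anti-PD-1 libraries these were Trav7-4 in library 1 (12.2%), Trav11n (42.7%) and Trav10 (6.5%) in library 2, Trav3-1 in library 3 (62.2%) and Trav14d-3-dv8 in library 4 (49.9%). In CD8 anti-JAML libraries they were Trav13-1 in library 1 (54.0%), Trav3-3 in library 3 (57.1%) and Trav6n-6 in library 4 (25.7%). The remaining marks were for small shares, Trav11n at 0.1% in CD8 isotype library 3 and 0.2% in Treg anti-PD-1 library 4, the only libraries of their groups with Trav11n counts, and Trav8n-2 at 2.1% in Treg isotype library 2. The shares of a library sum to 100%, which ties the marks within a library to each other.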

How the results depend on the processing

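Of the results compared with alternatives, the lower effective number and the lower summed Trav level in CD8 kept their direction and their side of the threshold in all but 1 case, the summed level relative to Trac counts (-0.461). Leaving out single libraries gave differences of -20.4 to -18.3 in effective number, -1.08 to -0.89 in log2 summed level, and 25 to 31 rows called lower. The count of 30 rows moved to 12 with the 8 isotype libraries alone (11 shared with the 30). It moved to 19 with the alike isotype libraries counted as 1 sample each. By family, a unit that cannot be set against rows, 12 families were called, 11 lower and 1 higher. With CD8 anti-PD-1 library 2 also left out, 11 families were called, all lower. DESeq2 called 34 rows, including all 30. In CD8 libraries it called 2 rows for anti-JAML against isotype, 1 for anti-PD-1 against isotype and 2 for anti-JAML against anti-PD-1. For each of these edgeR called 0. No share over all genes was taken for DESeq2 or for the other alternative fits, so their counts have no background to be read against. Antibody differences in effective number that missed the test in any setting changed sign in some. In CD8, anti-JAML against isotype ranged from -5.93 to 1.71 when single libraries were left out (1.44 and 1.71 without isotype 3 and 4, 0.944 and 0.832 without anti-JAML 1 and 3), and anti-JAML against anti-PD-1 became -2.55 without anti-JAML libraries 2 and 4. In Treg, the 3 differences became 0.215, 0.567 and -0.352 by family, and anti-JAML against anti-PD-1 became -0.231 with the inverse Simpson index and ranged from -1.41 to 2.39 when single libraries were left out. The causes were not tested.

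With the replicate number as a block, 19 rows were lower in CD8 (18 of the 30) and 0 rows were called between antibodies. No share over all genes was taken for these fits. The difference in effective number of -19.2 had a p of 0.000488 in an exact sign-flip test. The signs flipped were those of CD8 minus Treg for libraries of the same antibody and number, and no smaller p was possible. Deviations from group means had correlations of -0.18 to 0.15 between libraries of the same number. Whether those libraries share a mouse is not stated, and weak correlations between libraries of few cells cannot decide it.

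The limits are few cells per library, 4 libraries per group, for which no exact p can be below 0.0286, and shared sequence among copies, so that a row at 0 is not a segment out of use. Intervals cover counting error only.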
